A study of Mus musculus with 12 samples.

Results

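Mural granulosa cells (MGCs) line the wall of the ovarian follicle, and their RNA was compared between 3 libraries of WT mice and 3 libraries of Sphk1/2gc−/− mice. Every gene whose mean reached 0.5 FPKM (fragments scaled to exon length and library size) in either genotype was taken, which gave 15279 of the 29101 genes listed for MGCs. Of these, 540 reached that mean in the knockout libraries alone and 958 in the WT libraries alone. Such genes lean towards the genotype that let them in, so their direction is no support by itself. At the limit, Gm43040 was just inside with means of 0.50002 (WT) and 0.447 FPKM (knockout), and Vrk2 was just outside with 0.412 and 0.49997 FPKM. The MGC libraries are 6 of the 12 libraries of the series, the others being from cumulus cells. Per the study's methods, the knockout mice lacked Sphk1 in the whole body and carried Sphk2 fl/fl with Fshr-Cre, so that Sphk2 was removed where the Fshr promoter drives Cre, whereas controls were WT mice of the C57/BL6 background. Females of 21 to 23 days received 5 IU of eCG and, 48 h later, 5 IU of hCG, and all 6 libraries are from cells taken at 2 h post-hCG. Whether a library is 1 animal or a pool is not given in the labels, so p-values measure the spread between these libraries, which may be technical in part.

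Sphingosine kinases 1 and 2 phosphorylate sphingosine to sphingosine-1-phosphate (S1P), a lipid that signals through S1P receptors and is broken down by S1P lyase. The ovulatory surge of luteinizing hormone, which hCG imitates, acts first on MGCs. These cells respond with EGF-like ligands (Areg, Ereg, Btc), prostaglandin synthesis (Ptgs2) and a shift of steroid output towards progesterone, and they pass the signal on to the cumulus cells and the oocyte. Vessels, theca and leukocytes lie just outside the granulosa layer, so that MGC preparations can hold some of their RNA.

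The depth implied by the FPKM steps was 16492894 to 18074718 reads per library. The defining markers of granulosa cells were abundant in all libraries: Inha was at 6699 to 11600 FPKM and Fshr at 54.7 to 73.5 FPKM, and 0 of 12 granulosa markers separated the genotypes. Knockout library 3 stood apart. Its correlations with the others were 0.912 to 0.939 across 15279 genes, and it was the highest of the 6 libraries in 3607 of 7134 genes of at least 5 FPKM (50.6%) and the lowest in 1496 (20.97%). Its 10 most abundant genes took 14.1% of the summed FPKM against 19.9% to 24.9% elsewhere. Values are therefore given with and without it. Of the targeted genes, Sphk1 had 132, 151 and 37 reads in WT and 35, 45 and 9 reads in knockout libraries 1 to 3, so the genotypes overlapped. Sphk2 had 361, 409 and 363 against 318, 330 and 473 reads. These are whole-gene values, and no value per exon was used. Annotated exons of Sphk1 overlap those of Gm29292, and exons of Sphk2 those of Dbp and Rpl18.

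**Figure D1:**
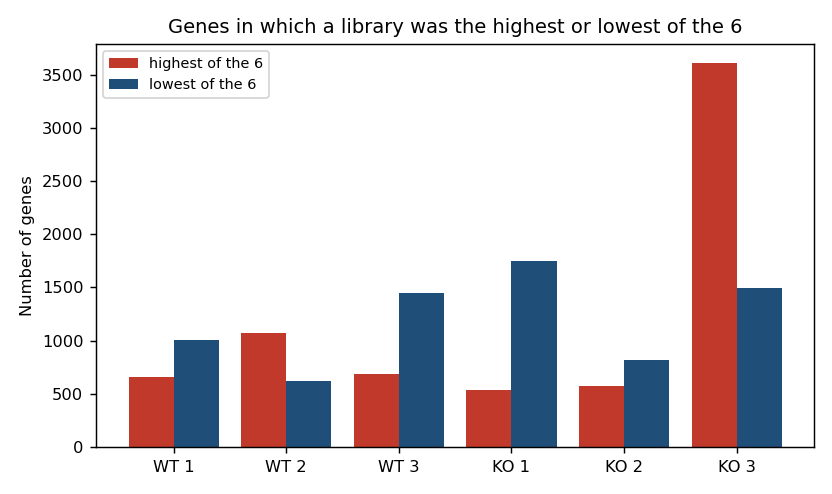
Bars give the number of genes, among the 7134 averaging 5 FPKM or more, in which each MGC library (x axis) was the highest (red) or the lowest (blue) of the 6. Knockout (KO) library 3 was the highest in 3607 genes, and the next was WT library 2 with 1071.

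Over all 6 libraries 1 gene was higher and 5 were lower in the knockout (limma adjusted p of 0.05 or less and a change of at least 2-fold; background 0.00654% and 0.0327% of 15279 genes). At an unadjusted p of 0.05 or less the counts were 505 (3.31%) and 901 (5.9%). BC002163 (chromosome 16, 42955631 to 42955949) rose, from 0.570, 0.374 and 1.30 FPKM in WT to 27.4, 24.8 and 31.6 FPKM in the knockout. It is annotated as a processed pseudogene in 1 exon and resembles Ndufs5, a subunit of respiratory complex I, so that reads of the pair may be divided by the aligner and both values are uncertain. Its log2 fold change on the log2(FPKM + 1) scale was 4.08 (SE 0.223, limma adjusted p = 0.00682), and the knockout libraries lay far above every WT library. Ndufs5 itself was at 26.5, 30.9 and 29.7 FPKM in WT against 14.3, 12.1 and 20.2 FPKM in the knockout, lower without overlap (−0.89, SE 0.195, limma adjusted p = 0.2271).

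The 5 genes that fell encode a secreted ligand, a hyaluronan-binding protein, a lipid transfer protein, a protease and a lectin receptor. Wnt10b, a Wnt ligand (chromosome 15, 98770712 to 98778150), was at 4.49, 3.01 and 4.65 FPKM in WT against 0.126, 0.126 and 0.0474 FPKM in the knockout (log2 fold change −2.18, SE 0.188, limma adjusted p = 0.0413). Cemip, which takes part in hyaluronan breakdown (chromosome 7, 83932857 to 84086502), was at 4.45, 3.11 and 4.90 against 0.193, 0.174 and 0.0588 FPKM (−2.16, SE 0.190). Both were nearly absent from all 3 knockout libraries, Cemip with 639 to 1011 reads in WT against 13 to 40. Gm2a, the activator protein of GM2 ganglioside breakdown in the lysosome (chromosome 11, 55098115 to 55113029), was at 61.1, 41.6 and 64.6 FPKM in WT against 11.5, 12.6 and 13.4 FPKM in the knockout (−2.05, SE 0.187). Asprv1, an aspartic protease described in the epidermis (chromosome 6, 86628164 to 86629710), was at 4.90, 5.16 and 6.94 against 0.648, 0.725 and 0.787 FPKM (−1.94, SE 0.175). Clec4d, a C-type lectin receptor of myeloid cells (chromosome 6, 123262111 to 123275265), was at 2.43, 2.20 and 2.67 against 0.184, 0.222 and 0.138 FPKM (−1.54, SE 0.149, limma adjusted p = 0.04996). In these 6 genes knockout library 3 lay on the same side of WT as knockout libraries 1 and 2. With the replicate number as a block, 2 genes were called higher and 1 lower (0.0131% and 0.00654%). BC002163 kept an adjusted p of 0.0215 and Gm12396 (adjusted p = 0.0367) was called beside it, while of the 5 lower genes none was called (limma block adjusted p of 0.0736 to 0.1117). Ngp took their place with a block adjusted p of 0.0313. Gm12396, with a WT mean of 0.455 FPKM, passed the filter through the knockout alone.

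Genes just outside the threshold in all 6 libraries, chosen here after their values were seen, had equally tight replicates. Lipg, endothelial lipase, was at 22.9, 17.01 and 27.7 against 4.97, 4.62 and 3.24 FPKM (−2.15, SE 0.220, limma adjusted p = 0.0535). Heyl, a Notch-responsive repressor, went the other way with 48.4, 50.4 and 41.0 against 101, 92.3 and 93.8 FPKM (1.03, SE 0.126, limma adjusted p = 0.0649). Tuba1a, an alpha-tubulin, was at 104, 108 and 105 against 58.0, 53.0 and 55.1 FPKM, and Slc27a3, a fatty acid transport protein, at 97.2, 89.1 and 104 against 52.1, 44.3 and 47.6 FPKM. None of these overlapped between the genotypes. Over all genes, 1179 (7.72%) were higher and 1401 (9.17%) lower in the knockout without overlap.

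Without knockout library 3, 116 genes were called higher and 54 lower (background 0.762% and 0.355% of 15215 genes). All 6 genes called over 6 libraries were among them. With libraries 1 and 2 of each genotype alone, 191 genes (1.24% of 15433) were called higher and 286 (1.85%) lower. Knockout library 3 did not enter the fit that called the 116 and 54 genes, but the 3 WT libraries it is set beside did. Genes called lower tend to have high WT values and genes called higher low ones. The shares over all genes are therefore not a like background. It lay below all 3 WT libraries in 48 of the 54 genes called lower (88.9%, against 25.97% of all genes), with a median of −1.45 log2 units from the WT mean against −1.39 for knockout libraries 1 and 2. Of the 116 genes called higher it lay above all WT libraries in 41 (35.3%, against 48.1% of all genes) and below them in 48, with a median difference of 0.00 against 1.56. In 3 of the 54 lower genes, Cirbp, Gm25929 and Gm15446 (named after their values were seen), it lay above all WT libraries. With each library centred on its median, the shares over all genes came to 42.2% below and 33.2% above, beside 49 of the 54 and 27 of the 116. This compares 1 library with 3 and has no test.

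**Figure D2:**
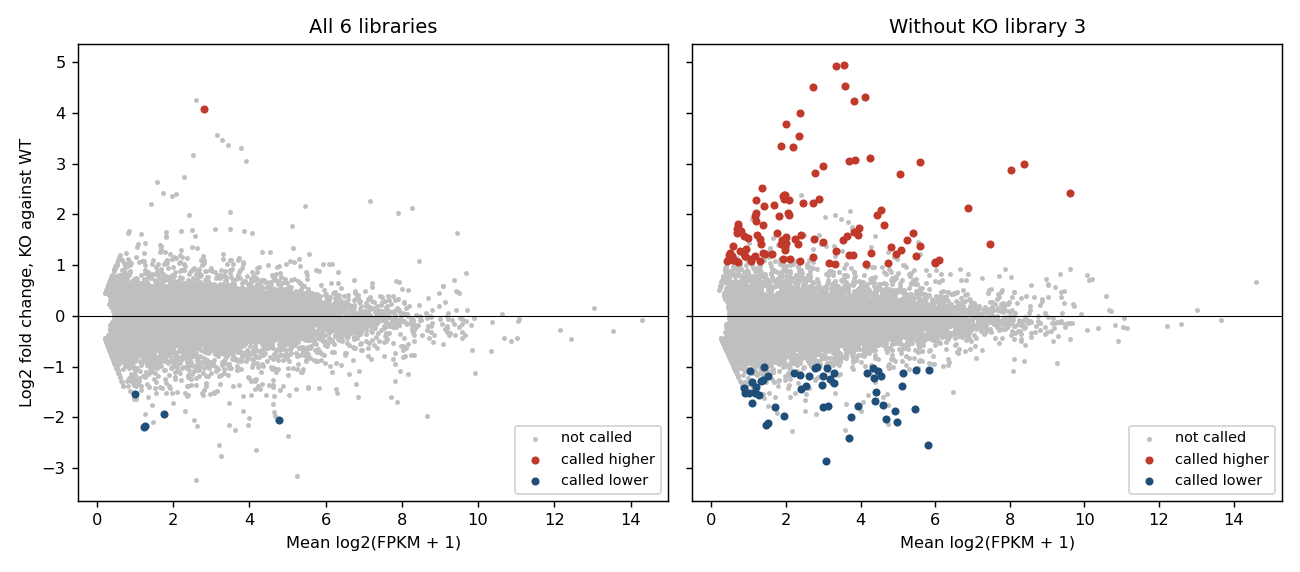
Log2 fold change of knockout (KO) against WT (y axis) by mean log2(FPKM + 1) (x axis) for each gene, over all 6 libraries (left, 15279 genes) and without KO library 3 (right, the 15064 of these genes also tested there). Red and blue points are genes called higher and lower: 1 and 5 on the left, 116 and 54 on the right.

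**Figure D3:**
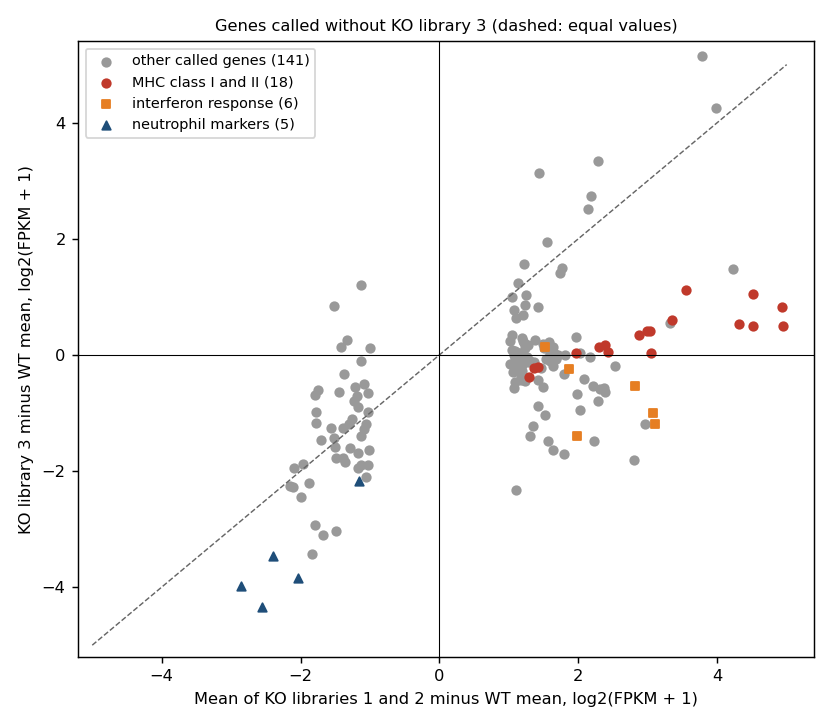
Each point is 1 of the 170 genes called without knockout (KO) library 3, by the difference from the WT mean in KO libraries 1 and 2 (x axis) and in KO library 3 (y axis), both in log2(FPKM + 1). The 18 MHC genes lie at a median of 3.01 on the x axis and 0.38 on the y axis, and the 5 neutrophil markers are low on both axes.

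Of the 10 genes with the largest rises by the rule for named genes, 8 belong to antigen presentation. MHC class I molecules display peptides of the cell's own proteins and are made in most cells. They need B2m as light chain, the proteasome subunits Psmb8 and Psmb9 to cut peptides, and the transporter Tap1 and Tap2 with Tapbp to load them, and Nlrc5 is the transactivator of these genes. H2-K1, a classical heavy chain (chromosome 17, 33996017 to 34000347), was at 143, 134 and 159 FPKM in WT and at 1167, 1155 and 193 FPKM in knockout libraries 1 to 3. H2-D1, the other classical heavy chain, was at 123, 117 and 112 against 871, 870 and 150 FPKM. B2m was at 386, 350 and 466 against 2137, 2152 and 409 FPKM. In each case libraries 1 and 2 stood well above WT and library 3 was close to it. Nlrc5 was at 0.821, 0.786 and 1.10 against 20.9, 21.7 and 3.11 FPKM, Tap1 at 3.34, 3.12 and 8.33 against 44.7, 44.5 and 4.61 FPKM, and Psmb9 at 1.19, 0.717 and 1.26 against 9.45, 8.62 and 1.26 FPKM. Without knockout library 3, 12 of 13 genes of the list rose (background 0.762%), the exception being H2-T23 (8.79 to 15.5 FPKM in WT, 30.02, 36.4 and 9.56 FPKM in the knockout). The log2 fold changes there were 2.99 for H2-K1 (SE 0.110, limma adjusted p = 0.00113), 2.43 for B2m (SE 0.152, limma adjusted p = 0.00426) and 3.55 for Nlrc5 (SE 0.117, limma adjusted p = 0.00103). Over 6 libraries limma called 0 of 13 (9 at an unadjusted p of 0.05 or less), with a median of 1.63 (all genes −0.003), and 5 of 13 were higher without overlap (background 7.72%). H2-Q5, H2-Q6 and H2-Q7 were among the largest rises as well, H2-Q7 with 3.07, 2.05 and 2.13 against 83.3, 70.9 and 5.99 FPKM; as these genes are near-identical copies, their division of reads is uncertain.

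MHC class II molecules present engulfed proteins and are mainly made by dendritic cells, macrophages and B cells. H2-Ab1 (chromosome 17, 34257689 to 34269419) was at 2.04, 1.93 and 0.978 FPKM in WT against 72.1, 85.1 and 3.62 FPKM in the knockout. H2-Eb1 was at 3.23, 1.66 and 1.30 against 80.1, 102 and 3.18 FPKM, and H2-Aa at 1.46, 0.604 and 0.760 against 36.3, 49.6 and 1.68 FPKM. Cd74, the invariant chain that escorts class II molecules, was at 5.03, 4.61 and 3.20 against 93.1, 114 and 6.55 FPKM. H2-DMa and H2-DMb1, the subunits of the peptide exchange factor, were at 0.614 to 1.38 and 0.240 to 0.602 FPKM in WT and up to 10.7 and 15.3 FPKM in the knockout. H2-DMb1, with a WT mean of 0.457 FPKM, passed the filter through the knockout alone. All 6 class II genes that passed the filter rose without knockout library 3, from 2.39 (H2-DMa, SE 0.206, limma adjusted p = 0.0102) to 4.95 (H2-Eb1). Over 6 libraries 0 of them were called (6 unadjusted). The summed level of the 6 was 7.09 to 13.3 FPKM in WT, 302 and 376 FPKM in knockout libraries 1 and 2, and 17.4 FPKM in library 3. Ciita, the class II transactivator, was under the filter with 0.584, 0.832 and 0.0737 FPKM in the knockout libraries.

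Markers of leukocytes moved with these genes in part. C1qa, a complement gene of macrophages, was at 10.49, 9.63 and 3.88 FPKM in WT against 25.6, 29.4 and 5.16 FPKM in the knockout. It was not called without knockout library 3 (limma adjusted p = 0.0955). Lyz2, another macrophage marker, leaned the other way with 98.6, 80.1 and 27.3 against 42.2, 55.1 and 8.49 FPKM. Of the 14 macrophage markers, 10 had a log2 fold change above 0 over 6 libraries and 4 below. Cd8a, a co-receptor of cytotoxic T cells, was at 0.0834, 0.0164 and 0 against 1.31, 1.28 and 0.0608 FPKM. Cd8b1, Nkg7, Gzmb and Ccl5, which are expressed by such cells, were called higher without knockout library 3 too, Nkg7 with 0.531, 0.261 and 0.130 against 4.07, 4.07 and 0.605 FPKM (chosen after their values were seen). Of 10 T cell markers 5 passed the filter, and Cd3d, Cd3e, Cd3g, Cd4 and Il7r did not. Those that passed summed to 2.14 to 2.40 FPKM in WT, 8.01 and 6.70 FPKM in knockout libraries 1 and 2 and 2.70 FPKM in library 3. Without knockout library 3, 2 of them were called (Cd8a and Trac, background 0.762%). These 2 were under 0.5 FPKM in each WT library and passed through the knockout alone, so their calls do not count as support. The same holds for Cd8b1 and Nkg7, whose WT means were under 0.5 FPKM. Cd3d and Cd3g had 0 FPKM in knockout library 3. Of 14 macrophage markers 1 was called (Fcgr1), and their sum, 65.3 to 177 FPKM in WT, was 148 and 178 FPKM in knockout libraries 1 and 2 and 36.2 FPKM in library 3. Of the B cell markers only Ighm passed the filter, at 0.411 to 1.35 FPKM in all libraries. Fewer cells of a type and less RNA per cell cannot be told apart in bulk RNA, and the part of leukocytes in the MHC values was not tested.

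The 250 bases before the start of MHC genes are shown because the genes moved together. Capitals mark CTGATTGG, the Y box that the MHC promoters are known to share (either strand), and in H2-D1 also the kappa B motif (GGGGA, any base, TCCC, either strand). In the RefSeq windows of GRCm38.p6, 5 of 11 class I and 2 of 4 class II genes with an entry held the Y box letters, against 3.83% of 32851 promoters, and 3 of 11 class I genes held the kappa B letters, against 0.289%.
H2-D1, chr17:35262844-35263093, plus strand: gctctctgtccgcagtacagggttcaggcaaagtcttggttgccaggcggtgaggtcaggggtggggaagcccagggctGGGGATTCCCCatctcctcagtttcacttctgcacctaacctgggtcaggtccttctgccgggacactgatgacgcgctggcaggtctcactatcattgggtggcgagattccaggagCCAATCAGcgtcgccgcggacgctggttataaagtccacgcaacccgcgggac
H2-Aa, chr17:34287824-34288073, minus strand: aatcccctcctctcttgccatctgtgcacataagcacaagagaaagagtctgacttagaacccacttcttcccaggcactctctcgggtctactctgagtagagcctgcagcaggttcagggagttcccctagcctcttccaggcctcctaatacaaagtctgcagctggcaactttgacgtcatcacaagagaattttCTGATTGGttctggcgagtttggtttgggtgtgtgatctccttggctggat
H2-Eb1, chr17:34305617-34305866, plus strand: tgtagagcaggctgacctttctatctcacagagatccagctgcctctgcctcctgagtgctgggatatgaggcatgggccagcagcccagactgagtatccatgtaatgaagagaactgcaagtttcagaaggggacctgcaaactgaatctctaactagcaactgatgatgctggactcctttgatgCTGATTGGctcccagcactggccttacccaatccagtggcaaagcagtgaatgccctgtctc
Tap1, chr17:34187306-34187555, plus strand: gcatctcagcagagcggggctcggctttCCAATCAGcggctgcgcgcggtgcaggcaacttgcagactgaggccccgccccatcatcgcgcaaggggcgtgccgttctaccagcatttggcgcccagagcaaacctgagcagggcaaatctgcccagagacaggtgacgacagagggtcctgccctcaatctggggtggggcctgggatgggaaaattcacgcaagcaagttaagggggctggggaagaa
The Y box letters began 53, 51, 62 and 222 bases before the start, in this order. A match is a description and not a binding site. Here and below, a listed gene counted if any of its entries held the letters, while shares over all promoters are per entry.

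Interferons raise MHC genes and a wide set of antiviral genes, including the guanylate-binding proteins and immunity-related GTPases that attack pathogens inside cells. Igtp was at 4.80, 5.10 and 14.1 FPKM in WT against 63.5, 74.6 and 2.54 FPKM in the knockout, and Iigp1 at 4.04, 4.35 and 7.72 against 48.3, 53.4 and 2.07 FPKM. Gbp2 was at 10.3, 11.0 and 13.2 against 43.3, 53.9 and 3.74 FPKM. In these genes knockout library 3 was below every WT library. Of the 32 genes of the list, 6 were called higher without it (background 0.762%; Gbp2, Gbp7, Igtp, Iigp1, Oas1a and Zbp1; log2 fold changes of 1.52 to 3.11), and the median was 0.66 there and 0.29 over 6 libraries, in which 0 were called (2 higher unadjusted). Zbp1 had a WT mean under 0.5 FPKM and passed the filter through the knockout alone. WT library 3 shared part of the pattern: the mean log2(FPKM + 1) of the list was 2.41 and 2.43 in WT libraries 1 and 2, 3.48 in WT library 3, 3.54 and 3.82 in knockout libraries 1 and 2, and 1.86 in knockout library 3. Irf1, which activates interferon targets, was at 3.93, 4.45 and 9.19 against 20.9, 26.3 and 4.70 FPKM. Cxcl1, a chemokine for neutrophils, was at 12.4, 13.0 and 17.6 against 112, 98.0 and 3.33 FPKM, and Ccl8, a monocyte chemokine, at 0.475, 0.233 and 0.116 against 5.89, 6.70 and 0.108 FPKM (both called higher without knockout library 3 and chosen after their values were seen). Ccl8, with a WT mean of 0.275 FPKM, passed the filter through the knockout alone, so its call does not count as support.

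The interferon-stimulated response element (GAAA, any 2 bases, GAAA) was found on either strand in 13 of 23 genes of the list with a promoter entry, against 2.98% of all promoters. It is marked in capitals in the windows of Gbp2 and Igtp, and of B2m as a class I gene that also held it.
Gbp2, chr3:142620413-142620662, plus strand: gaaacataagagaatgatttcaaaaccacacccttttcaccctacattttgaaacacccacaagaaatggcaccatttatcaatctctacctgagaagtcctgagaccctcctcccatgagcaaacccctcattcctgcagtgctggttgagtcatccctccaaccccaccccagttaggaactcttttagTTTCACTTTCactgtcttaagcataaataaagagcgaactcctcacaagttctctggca
Igtp, chr11:58199306-58199555, plus strand: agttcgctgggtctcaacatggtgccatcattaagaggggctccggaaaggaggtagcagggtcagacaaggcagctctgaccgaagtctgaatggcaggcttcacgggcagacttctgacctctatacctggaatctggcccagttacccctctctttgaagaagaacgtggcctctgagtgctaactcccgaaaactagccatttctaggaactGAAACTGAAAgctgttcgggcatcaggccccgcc
B2m, chr2:122147437-122147686, plus strand: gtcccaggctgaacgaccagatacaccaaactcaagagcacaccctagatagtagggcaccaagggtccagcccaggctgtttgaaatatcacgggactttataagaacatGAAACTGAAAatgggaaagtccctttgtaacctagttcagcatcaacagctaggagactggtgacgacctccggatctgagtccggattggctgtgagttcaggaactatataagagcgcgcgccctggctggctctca

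Transcripts of neutrophils, the first leukocytes to enter inflamed tissue, were lower in every knockout library. S100a9, a calcium-binding protein that makes up much of their cytosol, was at 139, 112 and 90.9 FPKM in WT against 16.5, 20.2 and 4.56 FPKM in the knockout. S100a8, its partner, was at 53.3, 44.7 and 36.5 against 9.27, 10.9 and 2.15 FPKM. Ngp, a granule protein, was at 25.8, 20.8 and 9.95 against 1.54, 1.55 and 0.181 FPKM, and Retnlg, a resistin-like protein, at 30.3, 23.1 and 19.6 against 3.88, 3.59 and 1.27 FPKM. None of these overlapped. All 13 markers that passed the filter, of 15, were lower without overlap (background 9.17%; Elane and Mpo did not pass), with a median log2 fold change of −1.502, but 0 were called over 6 libraries (13 unadjusted; limma adjusted p of 0.0649 for Retnlg, 0.0744 for Ngp and 0.1300 for S100a9). Without knockout library 3, 5 were called lower (S100a8, S100a9, Retnlg, Ngp and Mmp8; background 0.355%), and library 3 held the lowest value of the 6 libraries in each of them. The summed level was 186 to 288 FPKM in WT, 42.4 and 47.7 FPKM in knockout libraries 1 and 2 and 11.9 FPKM in library 3. Clec4d, called over 6 libraries, and Clec4e (2.88, 2.39 and 2.59 against 0.475, 0.499 and 0.189 FPKM) are also myeloid receptors, and Hp, haptoglobin, was at 9.97 to 14.3 FPKM in WT and 0.723 to 3.12 FPKM in the knockout. Erythroid markers did not separate the genotypes, as the 5 tested summed to 262 to 404 FPKM in WT, 291 and 230 FPKM in knockout libraries 1 and 2, and 30.6 FPKM in knockout library 3.

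**Figure D4:**
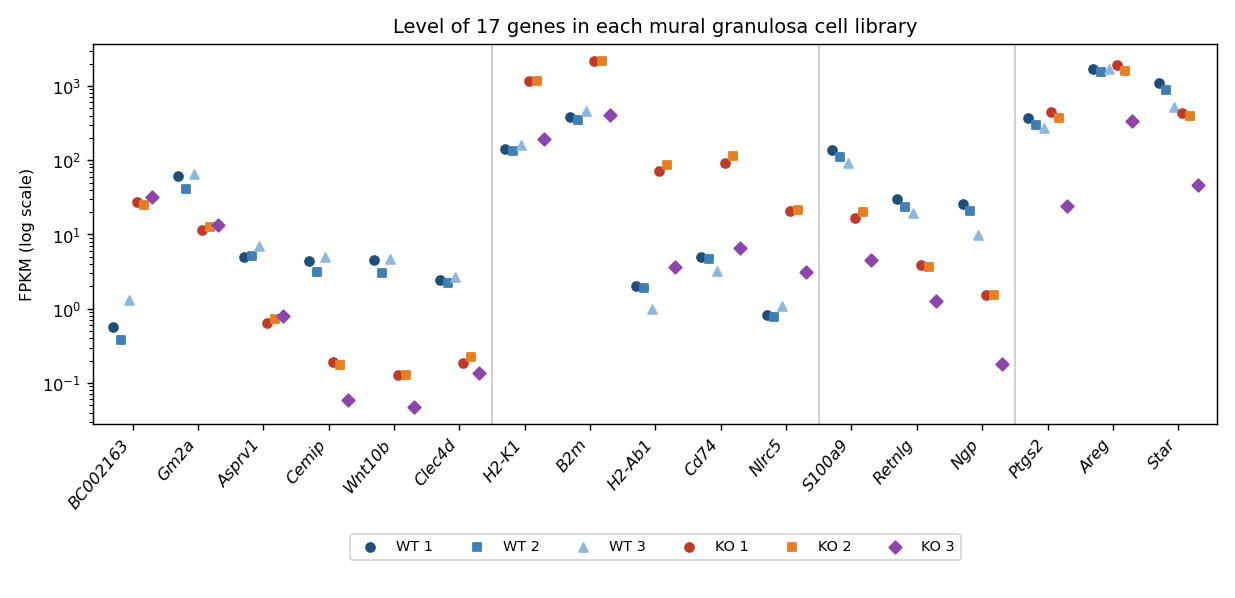
FPKM (log axis) of 17 genes in each MGC library (WT in blue, knockout (KO) in red, orange and purple); vertical lines divide the called genes, MHC genes, neutrophil markers and genes of the hCG response. KO library 3 is on the same side of WT as the other KO libraries for the 6 called genes, nearer to WT than to them for the MHC genes, and below all 5 others for the neutrophil markers and for Ptgs2, Areg and Star.

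Endothelial and perivascular genes were low too, though with smaller differences. Of 13 endothelial markers tested, 11 were lower without overlap (background 9.17%) and 0 were called with or without knockout library 3 (limma, 8 unadjusted over 6 libraries; median log2 fold change −0.55). Cldn5, a claudin of vessels, was at 1.63, 2.11 and 2.27 FPKM in WT against 0.417, 0.710 and 0.313 FPKM in the knockout, and Tie1, an endothelial receptor kinase, at 1.37, 1.70 and 1.74 against 0.612, 0.733 and 0.315 FPKM. Markers such as Cldn5, Selp and Erg had knockout means under 0.5 FPKM (Selp 0.242, Erg 0.214) and passed the filter through WT alone. The direction of such markers is no support by itself. The list summed to 23.6 to 28.7 FPKM in WT against 13.1 to 16.9 FPKM in the knockout. Ednrb, an endothelin receptor, was at 1.79, 1.85 and 2.32 against 0.541, 0.541 and 0.726 FPKM. Of 17 theca and stroma markers, 5 were lower without overlap (background 9.17%) and 0 were called (5 unadjusted), among them Pdgfrb, a receptor of pericytes (1.91, 2.24 and 2.43 against 0.700, 0.927 and 0.959 FPKM), and Acta2, smooth muscle actin (51.5, 49.3 and 54.7 against 37.8, 27.6 and 36.2 FPKM). Cyp17a1, the androgen-forming enzyme of theca cells, overlapped (72.9 to 170 FPKM in WT, 40.3 to 114 FPKM in the knockout).

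The early response to hCG set knockout library 3 against the rest. Ptgs2, the inducible prostaglandin synthase, was at 365, 303 and 268 FPKM in WT, 447 and 370 FPKM in knockout libraries 1 and 2, and 24.6 FPKM in library 3. Areg, an EGF-like ligand, was at 1672, 1552 and 1705 FPKM in WT against 1940, 1605 and 340 FPKM in the knockout. Pgr, the progesterone receptor, was at 139, 118 and 98.8 against 124, 101 and 16.2 FPKM. In all 3 genes knockout libraries 1 and 2 were near WT while library 3 was far below. Ereg, another ligand of the EGF receptor, was at 977, 854 and 908 FPKM in WT and at 1628, 1354 and 157 FPKM in the knockout, and Btc at 189, 166 and 152 against 310, 275 and 33.7 FPKM. Tnfaip6, which crosslinks hyaluronan, was at 938, 889 and 747 against 1605, 1385 and 144 FPKM, Ptx3, which stabilizes that matrix, at 54.6, 51.1 and 44.2 against 114, 103 and 9.08 FPKM, and Vcan, a proteoglycan, at 384, 366 and 485 against 748, 614 and 134 FPKM. These matrix genes and ligands were above WT in knockout libraries 1 and 2 and below it in library 3. Of the 25 genes of the hCG-induced list, 0 were called over 6 libraries (1 unadjusted) and 2 were called higher without knockout library 3: Ptx3 (log2 fold change 1.10, SE 0.117, limma adjusted p = 0.0185) and Il6 (1.30, SE 0.105, limma adjusted p = 0.00963). Ereg missed the threshold there (0.70, SE 0.141, limma adjusted p = 0.0812). Ctsl, cathepsin L, was the list's only gene above WT in all 3 knockout libraries (586, 686 and 568 against 1117, 1203 and 974 FPKM; 0.84, SE 0.167, limma adjusted p = 0.1898). The median of the list turned from −0.23 over 6 libraries to 0.38 without knockout library 3.

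The Areg promoter window is shown for the core of the cAMP response element, TGACG on either strand, in capitals. Of 20 genes of the list with an entry, 7 held the core, against 17.8% of all promoters. The core was not particular to this list. It was held by 8 of 11 MHC class I genes, 1 of 4 class II genes and 3 of 23 interferon genes with an entry.
Areg, chr5:91139349-91139598, plus strand: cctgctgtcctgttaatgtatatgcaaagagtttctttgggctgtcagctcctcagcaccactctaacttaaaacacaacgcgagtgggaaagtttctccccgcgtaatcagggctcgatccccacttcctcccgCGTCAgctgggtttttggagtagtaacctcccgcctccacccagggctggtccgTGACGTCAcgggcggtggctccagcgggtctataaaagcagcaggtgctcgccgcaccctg

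The genes that set knockout library 3 apart most, chosen by the gap to the nearest of the other 5 libraries, were Nts, Ptgs2, Gm16485, Star, Gm11843, Hbb-bs, Cxcl10 and Hba-a1 at the low end. Nts, neurotensin, was at 148 to 252 FPKM in the other 5 libraries and 6.78 FPKM in library 3, and Star, which carries cholesterol into mitochondria for steroid synthesis, at 395 to 1080 and 47.1 FPKM. At the high end were Otor, Gm47528, Pola2, Uhrf1, Dnph1, Tmem229b, Cbs and Cpxm1. Uhrf1, which keeps DNA methylation through replication, was at 7.69 to 11.5 FPKM elsewhere and 42.1 FPKM in library 3, and Pola2, a subunit of DNA polymerase alpha, at 4.52 to 5.94 and 23.5 FPKM. Inhbb, an inhibin subunit known from the stage of FSH growth, was at 171, 193 and 416 FPKM in WT, 293 and 324 FPKM in knockout libraries 1 and 2 and 1351 FPKM in library 3. The mean log2(FPKM + 1) of 40 DNA replication genes was 4.04 in library 3 and 2.69 to 2.98 elsewhere, and that of 40 mitosis genes 4.11 against 3.15 to 3.55. In each list 0 genes were called (1 unadjusted) and 4 of 40 were higher without overlap, near the background of 7.72%, and the medians of 0.36 and 0.29 over 6 libraries came to −0.03 and 0.05 without library 3. 

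**Figure D5:**
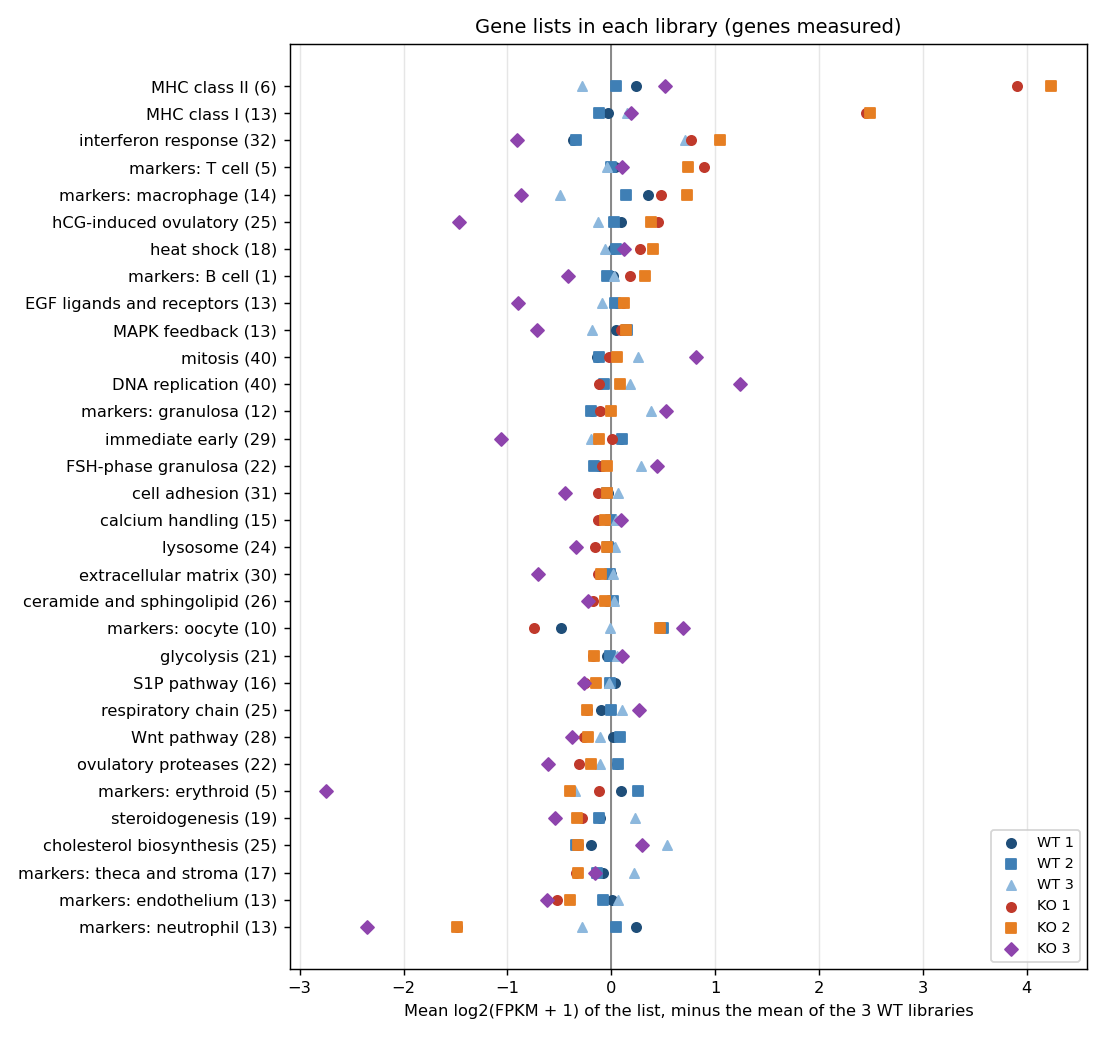
For each gene list (y axis, number of genes measured), the mean log2(FPKM + 1) in each library minus the mean of the 3 WT libraries (x axis); WT in blue, knockout (KO) in red, orange and purple. KO libraries 1 and 2 are far right for the MHC lists, all 3 KO libraries are left for neutrophil and endothelial markers, and KO library 3 parts from the others for hCG-induced, immediate early, replication and erythroid genes.

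Steroid synthesis genes were lower in the knockout in part. Star was at 1080, 890 and 521 FPKM in WT against 436, 395 and 47.1 FPKM in the knockout, and Cyp11a1, which makes pregnenolone from cholesterol, at 346, 267 and 520 against 181, 160 and 58.2 FPKM. Hsd17b7, which acts in estradiol and cholesterol synthesis, was at 44.6, 31.0 and 75.6 against 10.3, 9.84 and 16.9 FPKM (log2 fold change −1.89, SE 0.346, limma adjusted p = 0.1569; −2.13, SE 0.353, limma adjusted p = 0.0566 without knockout library 3). Of 19 genes 6 were lower without overlap (background 9.17%) and 0 were called (3 unadjusted; median −0.20). Cyp19a1, the aromatase that makes estrogen, overlapped with 132, 144 and 366 against 266, 261 and 403 FPKM, and so did Lhcgr, the receptor for hCG (213 to 565 FPKM in WT, 210 to 246 FPKM in the knockout). Immediate early genes, which answer a signal within minutes to hours, were low mainly in knockout library 3. Of 29, 5 were lower without overlap (background 9.17%; Nr4a1, Nr4a3, Junb, Egr1 and Fosl2), 0 were called (2 unadjusted), and the median moved from −0.37 to −0.13 without library 3. Nr4a1, an orphan nuclear receptor, was at 660, 669 and 645 against 484, 453 and 400 FPKM. Of 13 MAPK feedback genes 1 was lower without overlap (Spred3), and Dusp6, a phosphatase of ERK, was at 26.1, 29.8 and 25.9 against 55.2, 53.2 and 22.7 FPKM (0.97, SE 0.0956, limma adjusted p = 0.0146 without knockout library 3, under the 2-fold limit). Of 13 genes of EGF ligands and receptors, 1 was lower without overlap, the ligand Epgn with 73.1, 58.7 and 40.2 against 36.8, 31.0 and 4.93 FPKM.

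The precursors of miR-132 and miR-212, neighbours on chromosome 11 (75173682 to 75173747 and 75173388 to 75173478), were lower in all knockout libraries. Mir132 was at 22.05, 23.5 and 26.1 FPKM in WT against 5.36, 7.16 and 10.1 FPKM in the knockout (log2 fold change −1.58, SE 0.214, limma adjusted p = 0.0821; −1.78, SE 0.140, limma adjusted p = 0.00892 without knockout library 3). Mir212 was at 36.6, 30.1 and 27.4 against 11.7, 14.9 and 7.30 FPKM (−1.44, SE 0.253, limma adjusted p = 0.1523; −1.18, SE 0.163, limma adjusted p = 0.0378 without it). Both were picked once their values were known. The mature sequences from RefSeq are shown because the 3p arms of the pair share a seed (bases 2 to 8, in capitals), while the 5p arms do not.
mmu-miR-132-3p: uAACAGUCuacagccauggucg
mmu-miR-212-3p: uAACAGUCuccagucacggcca
mmu-miR-132-5p: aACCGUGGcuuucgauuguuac
mmu-miR-212-5p: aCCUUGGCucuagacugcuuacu
These reads cover the precursor or its host transcript, with 12 to 55 reads per library for Mir212, and do not measure the mature miRNA. Mir132 rested on fewer reads, with 24, 26 and 29 in WT against 6, 8 and 12 in the knockout.

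Matrix, protease and adhesion genes were mixed, beside 9.17% of all genes lower and 7.72% higher without overlap. Of 30 extracellular matrix genes 7 were lower and 1 higher without overlap. Cemip was called over 6 libraries and, without knockout library 3, Ptx3 rose and Cemip fell. Col4a5, a basement membrane collagen, was at 18.1 FPKM or more in each WT library and 14.8 FPKM or less in each knockout library. Comp, a matrix glycoprotein known from cartilage, was at 67.2, 65.3 and 87.4 against 22.8, 16.95 and 5.86 FPKM (log2 fold change −2.36, SE 0.439, limma adjusted p = 0.1594; −1.83, SE 0.182, limma adjusted p = 0.0149 without knockout library 3). Of 22 ovulatory proteases and inhibitors 6 were lower and 2 higher without overlap, with 0 called (6 and 2 unadjusted). Plau, urokinase, was at 458, 440 and 212 against 177, 209 and 80.1 FPKM, and its inhibitor Serpine2 at 388, 393 and 551 against 658, 672 and 649 FPKM. Of 31 adhesion genes 10 were lower and 2 higher without overlap (background 9.17% and 7.72%), with 0 called (9 and 2 unadjusted). Itgb3, an integrin subunit, was at 7.08, 7.52 and 12.1 against 4.33, 4.41 and 4.11 FPKM. Of 28 Wnt pathway genes 4 were lower and 2 higher without overlap, and Wnt10b was the 1 call. Sfrp4, a secreted Wnt inhibitor, was at 512, 418 and 353 against 236, 217 and 41.8 FPKM, and Frzb, another, at 6.05, 6.41 and 3.76 against 2.41, 2.59 and 1.11 FPKM. All of these lower values were without overlap, though narrowly for Plau (212 FPKM in WT library 3, 209 FPKM in knockout library 2). Several receptors and regulators outside the lists were without overlap too. Ptgfr, the receptor for prostaglandin F2 alpha, was at 29.6, 26.9 and 37.7 against 11.5, 9.34 and 2.91 FPKM, and Lrp11, a receptor-like membrane protein, at 35.7, 29.5 and 31.1 against 9.75, 8.98 and 2.85 FPKM. Cited4, a transcriptional coactivator, was at 61.2, 61.6 and 33.3 against 13.9, 12.1 and 10.1 FPKM (−1.98, SE 0.261, limma adjusted p = 0.0744).

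Chaperone genes leaned upwards. Of 18 heat shock and folding genes 8 were higher and 1 lower without overlap (background 7.72% and 9.17%), and Hsph1 was the 1 gene called higher without knockout library 3 (background 0.762%). Hspa8, the constitutive Hsc70, was at 433, 451 and 439 FPKM in WT against 673, 682 and 646 FPKM in the knockout (log2 fold change 0.60, SE 0.130, limma adjusted p = 0.2271). Dnajb1, its co-chaperone, was at 23.8, 23.7 and 21.5 against 38.8, 39.9 and 24.5 FPKM. Of 24 lysosomal genes 11 were lower and 1 higher without overlap (background 9.17% and 7.72%). Gm2a was the 1 call, and Ctsd, cathepsin D, was at 56.1, 51.8 and 55.8 against 40.3, 43.7 and 33.6 FPKM (−0.47, SE 0.135, limma adjusted p = 0.3487). Of 26 ceramide and sphingolipid genes 8 were lower and 1 higher without overlap (same background), Gm2a again being the 1 call. Ugcg, which makes glucosylceramide, was the higher one with 20.2, 21.5 and 29.5 against 31.3, 33.5 and 51.5 FPKM.

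Of the S1P pathway genes, limma called 0 over 6 libraries and 0 without knockout library 3. Of its 20 genes 16 passed the filter, 3 were lower without overlap (background 9.17%) and 0 were higher (4 lower unadjusted; median −0.16). Sgpl1, S1P lyase, was at 21.97, 20.9 and 18.8 FPKM in WT against 16.2, 17.3 and 16.3 FPKM in the knockout (log2 fold change −0.29, SE 0.119, limma adjusted p = 0.5244). S1pr1, an S1P receptor, was at 7.80, 7.26 and 5.06 against 4.69, 3.94 and 2.09 FPKM (−0.78, SE 0.272), and Spns2, the S1P exporter, at 1.35, 1.04 and 1.34 against 0.332, 0.622 and 0.908 FPKM (−0.48, SE 0.188). S1pr2 and S1pr3 overlapped (1.24 to 2.21 and 0.507 to 0.930 FPKM over all libraries), and so did the phosphatases Sgpp1, Sgpp2, Plpp1, Plpp2 and Plpp3 and the ceramidases Asah1, Asah2, Acer2 and Acer3. S1pr4, S1pr5, Mfsd2b and Acer1 were below the filter.

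In the respiratory chain, where 3 of 25 genes were lower and 2 higher without overlap (background 9.17% and 7.72%), Ndufs5 and Cox4i2 were called lower without knockout library 3. Cox4i2, an isoform of a cytochrome oxidase subunit, was at 6.31, 8.47 and 7.68 FPKM in WT against 2.62, 1.87 and 1.47 FPKM in the knockout (log2 fold change −1.39, SE 0.165, limma adjusted p = 0.0241; −1.51, SE 0.198, limma adjusted p = 0.0744 over 6 libraries). The remaining lists had 0 calls by limma with or without knockout library 3 (0 to 2 genes unadjusted over 6 libraries): calcium handling (15 tested, 0 higher and 3 lower without overlap), cholesterol biosynthesis (25, 0 and 1), glycolysis (21, 2 and 1) and genes of FSH-stage granulosa cells (22, 1 and 1). Itpr1, a calcium release channel, was the clearest of the first with 13.4, 14.1 and 10.9 against 7.68, 8.52 and 7.00 FPKM.

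The study itself names 64 genes on granulosa function, of which 58 passed the filter here. Of these 29 were lower and 1 higher without overlap (background 9.17% and 7.72%), with a median log2 fold change of −0.76, and without knockout library 3 Ptx3 was called higher and Cemip and Ptgfr lower. The study shows part of them from its sequencing of MGCs or cumulus cells and measured others, such as Nppc and Npr2, by separate assays. As the set was not chosen apart from these libraries, the count is no independent evidence of direction. Among them Nos2, a nitric oxide synthase, was at 16.2, 18.7 and 6.49 FPKM in WT against 5.31, 7.90 and 4.97 FPKM in the knockout, Wt1, a transcription factor of early granulosa cells, at 8.495, 8.88 and 3.08 against 2.46, 3.96 and 3.38 FPKM, and Hdac5, a histone deacetylase, at 13.4, 13.8 and 8.04 against 5.58, 5.11 and 4.90 FPKM. WT library 3 was the lowest WT library in all 3 genes and reached into the knockout range in the first 2.

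Genes called in MGCs over 6 libraries were also looked up in cumulus cells, whose table was scaled on its own. BC002163 was at 3.89, 4.53 and 2.68 FPKM in WT against 105, 159 and 132 FPKM in knockout cumulus cells (log2 fold change 4.82, SE 0.215, limma adjusted p = 4.4e-05, in a comparison that called 4.19% of 12205 genes higher and 3.85% lower). Ndufs5, which BC002163 resembles, overlapped there with 32.5, 25.5 and 18.5 against 23.1, 39.3 and 28.7 FPKM (0.25, SE 0.254, limma adjusted p = 0.5114). Its lower values in knockout MGCs were thus not seen in cumulus cells. Gm2a was at 13.0, 12.2 and 19.6 against 10.0, 12.1 and 11.8 FPKM in cumulus cells (−0.35, SE 0.199, limma adjusted p = 0.2347). Wnt10b and Cemip were at 0.0532 FPKM or less in every cumulus library, and Asprv1 and Clec4d at 0.683 FPKM or less.

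Genes near the targeted loci were counted apart. Within 5 Mb of Sphk1 on chromosome 11, 27 of 168 tested genes did not overlap between the genotypes (16.1%; 15 higher and 12 lower), and within 5 Mb of Sphk2 on chromosome 7, 14 of 113 (12.4%; 6 and 8), against 16.9% of all genes. None was called over 6 libraries. Without knockout library 3, Fads6, a fatty acid desaturase gene 1.245 Mb from Sphk1, was called lower (4.55, 3.54 and 4.97 FPKM in WT against 0.443, 0.630 and 2.30 FPKM), and Nkg7, 2.28 Mb from Sphk2, was called higher.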

How the data were processed

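RNA of MGCs from 3 WT and 3 Sphk1/2gc−/− libraries was analysed. The authors deposited FPKM per gene, and the submitters' processing notes name HISAT2 and GRCm38; the counting tool and its strand setting are not given in the sources used here. Of the sample columns, 0 were left unused. Gene positions came from GENCODE M21, which lacks 64 of the genes. FPKM times exon length gave whole multiples of a step (tolerance 0.02 reads) for 90.8% to 91.3% of values above 0, from which reads were recovered.

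Genotypes were compared with limma 3.58.1 (R 4.3.3; trend) on log2(FPKM + 1), which understates changes of low genes, and calls needed an adjusted p (Benjamini-Hochberg) no higher than 0.05 together with a 2-fold change. "Without overlap" means that all knockout values lay on one side of all WT values. Deviations from the genotype means correlated at 0.220, 0.158 and 0.224 for libraries of the same number. For libraries of unlike number they ran from −0.232 to 0.155, the highest being WT library 1 with knockout library 2. Deviations within a genotype sum to 0, so these values depend on each other and do not establish a pairing. The number, taken from the labels, was also fitted as a block.

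The members and the 32 gene lists were chosen with earlier results of these data known. Named genes are those called over 6 libraries, the 10 largest changes per direction (mean of 5 FPKM or more, no overlap, called without knockout library 3), list members of highest level or change, 8 genes per direction that set knockout library 3 apart, S1P genes, called genes within 5 Mb of Sphk1 or Sphk2, and genes the study names; others are stated as chosen later. The alternatives were other pseudocounts, filters and scalings, libraries left out, array weights, robust variance, no trend, the block and voom on recovered reads. Python 3.11.15 was used for tables.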

Additional observations from a re-analysis of the deposited data

How the results depend on the processing

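The counts of calls over 6 libraries were small and depended on single libraries and settings. Leaving out 1 library gave 0 to 116 genes higher and 0 to 54 lower: 116 and 54 without knockout library 3, 0 and 0 without WT library 1, WT library 2 or knockout library 2, 1 and 0 without WT library 3, and 1 and 1 without knockout library 1. Without replicate 3 of both genotypes there were 191 higher and 286 lower genes. Array weights, whose estimate did not converge and gave knockout library 2 a weight of 22.8, called 259 and 339. The number called higher was 3 and 5 with pseudocounts of 0.1 and 0.5, 2 with the replicate block and 0 with limma-voom on recovered reads, and 1 under the other settings. The number called lower was 0 with no filter, with a mean of at least 5 FPKM, with quantile normalization, with median centring and with limma-voom, and 1 with the replicate block, a paired fit run over all 6 libraries only, whose changed calls are those given in the report. At an unadjusted p of 0.05 or less, the settings with 0 higher calls gave 208 to 417 higher genes, and those with 0 lower calls 377 to 1446 lower genes. The genes without overlap, 1179 higher and 1401 lower, came to 1433 to 2293 and 1644 to 4203 with 1 library left out. Of the 24 called or top-ranked genes, 0 changed direction under any setting run. All 24 were without overlap of the genotypes over 6 libraries. Leaving out libraries or changing the pseudocount, filter, weights, variance, trend or block could therefore not reverse them. Only the other scalings and voom could have done so. With each library centred on its median, chosen after seeing the data, knockout library 3 lay above all WT libraries in 27 of the 116 higher genes (23.3%, against 33.2% of all genes) and below them in 49 of the 54 lower genes (90.7%, against 42.2% of all genes). The same WT libraries had entered these calls, so the shares over all genes are not a like background here either. The causes were not tested. Depth limits Sphk1, Ly6g, Cd8a and other genes with few reads.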

Other observations

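Transcripts of the oocyte differed between libraries and not between genotypes. The 10 oocyte markers that passed the filter summed to 37.7, 92.7 and 62.9 FPKM in WT against 28.0, 87.9 and 115 FPKM in knockout libraries 1 to 3. Zp3, a zona pellucida protein, was at 7.61, 20.1 and 17.3 against 5.31, 19.2 and 31.1 FPKM, and Nlrp5, a maternal effect gene, at 0.976, 3.18 and 1.71 against 0.828, 4.11 and 6.10 FPKM. Library 1 was the lowest of its genotype in both genes, and 0 of the 10 separated the genotypes. In these 2 genes knockout library 3 was the highest of the 6.

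Beside BC002163, a pair of other processed pseudogenes was near 0 in WT and expressed in each knockout library. Gm12396, which RefSeq names as a copy of Psenen, was at 0.396, 0 and 0.969 FPKM in WT (5 reads or fewer) and 16.8, 20.1 and 48.8 FPKM in the knockout (limma adjusted p = 0.0535). Gm1840, which RefSeq names as a copy of Gpi1, was at 0.127, 0.167 and 0.331 against 5.31, 4.45 and 11.2 FPKM (limma adjusted p = 0.0649). Gm12396 and Gm1840 had WT means of 0.455 and 0.208 FPKM. Both passed the filter through the knockout alone, so their direction is no support by itself. Psenen was at 19.9, 24.1 and 30.3 against 14.8, 15.0 and 11.0 FPKM, lower without overlap, and Gpi1 at 24.4 to 26.5 against 22.9 to 30.8 FPKM, with overlap. In cumulus cells Gm12396 was at 2.73 to 4.09 FPKM in WT against 1.91 to 2.81 FPKM in the knockout, and Gm1840 at 0.954 to 1.86 against 2.65 to 4.71 FPKM. As the copies resemble their parents, how reads were divided between them is uncertain.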
